A study of Mus musculus with 12 samples.

Results

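Solute carriers, the membrane proteins that move amino acids, sugars, organic ions, metals, vitamins and mitochondrial metabolites across membranes, were examined in a table of m6A peaks from mouse liver. A peak was taken when 1 of its gene symbols had the form of a solute carrier name (Slc, a family number, the letter a and a member number). The zinc transporter families Slc30a and Slc39a and the genes Slc10a1, Slc11a2, Slc2a2, Slc38a4 and Slc40a1 were left out. This gave 478 of 37118 peaks and 168 of 13060 gene symbols, in 42 families that were placed in 11 classes by substrate. Classes follow the family number, save for some genes placed by their own substrate. Among these are Slc16a10 and Slc17a8 (amino acids), Slc5a6 (vitamins and choline) and Slc43a3 (nucleosides and nucleobases), so the Slc5, Slc16, Slc17 and Slc43 families are split between classes. The Slc17, Slc45 and Slc46 families carry several kinds of substrate, so the classes of Slc17a4, Slc45a3 and Slc46a3 are uncertain. The rule uses names alone, not measured values, but the members were chosen with earlier results of these data known. All 478 peaks passed the filter on low counts.

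The livers came from male wild-type C57BL/6 mice that were 6 to 8 weeks old at the start. They received CdCl2 by gavage at 0 mg/kg/day (control) or 20 mg/kg/day (cadmium) and were sampled at day 90, with 3 libraries per group from groups of 6 animals. Fragmented RNA was pulled down with an anti-m6A antibody, which binds adenosines methylated at the N6 position. Each count was read as the number of immunoprecipitated reads in a peak, which is an assumption, since input libraries carry the same library numbers. The 6 libraries held 40174736 to 52338612 counts, of which solute carrier peaks took 1.11 to 1.41%, and 2 peaks of predicted genes took 4.95 to 19.7%. Input RNA was not used here, so the amount of a gene's RNA and its methylated share cannot be told apart in a peak count. In whole liver, fewer cells of a type and less RNA per cell cannot be told apart either.

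Most solute carriers work by secondary active or facilitated transport and use no ATP of their own. In the hepatocyte they take up amino acids, sugars and organic cations from the blood and exchange monocarboxylates. The Slc25 family crosses the inner mitochondrial membrane, where it exchanges nucleotides, keto acids, amino acids and cofactors.

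Among the transporters, the amino acid transporter Slc38a2 and the monocarboxylate family members Slc16a12 and Slc16a5 had lower peaks in cadmium livers, as did the mitochondrial carriers Slc25a37, Slc25a32 and Slc25a51. The lactate transporter Slc16a1, the amino acid transporters Slc43a2 and Slc7a8, the dicarboxylate transporter Slc13a3 and the metal transporter Slc11a1 had higher peaks. In a fit over all peaks, 39 of the 478 solute carrier peaks were called at an edgeR adjusted p below 0.05, 16 higher and 23 lower in cadmium. That is 8.16% of them, beside 6.27% over all 37088 tested peaks, with 3.55% of all peaks called higher and 2.72% called lower. The called peaks lay in 21 genes, 12 with higher and 9 with lower peaks and none with both, beside 9.4% of all genes with a called peak (5.95% with a higher and 3.46% with a lower one).

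Most solute carrier peaks did not pass the test, and the median log2 change over the 478 peaks was -0.06. All 3 cadmium libraries lay above all 3 controls in 70 peaks and below them in 76, which is 14.6% and 15.9% of the peaks, beside 14.4% and 12.5% of all peaks. Taking for each gene its leading peak, the one with the highest mean count over the 6 libraries, 8 genes were called higher and 7 lower, beside 4.39% and 2.4% of all leading peaks, or 6.79% in both directions. The leading peak had a positive log2 change in 91 genes and a negative one in 77. Its median was 0.03, and 0.02 over the leading peaks of all genes.

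Fewer peaks were called whichever library was left out, fewest without cadmium replicate 3 and next without control replicate 3. Such fits hold fewer samples. Of the 39 calls, 4 were kept in all 6 of these fits. With the pairing more peaks were called. Without cadmium replicate 3, 4 solute carrier peaks stayed called, all of them in Slc38a2, and 543 peaks in the whole table. Without control replicate 3, 17 peaks in 7 solute carrier genes and 1078 in the whole table were called. With the batch of the labels, which carries the same number as the replicate, as a block, 36 peaks were called lower and 18 higher, and the same 39 calls were kept.

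**Figure D1:**
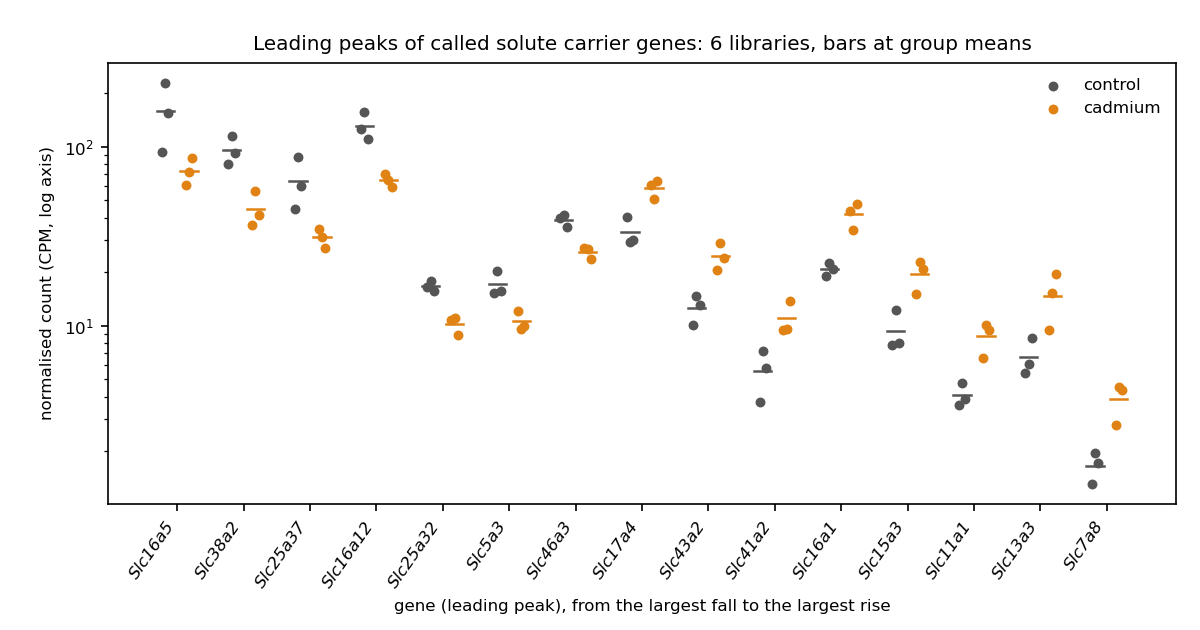
Normalised counts (CPM, normalised to library size, log axis) of the leading peak of the 15 solute carrier genes called by that peak, with 1 point per library (3 control, 3 cadmium) and bars at group means. In each of the 15 genes the 3 cadmium libraries lie entirely below or entirely above the 3 controls, beside 12.5% and 14.4% of all peaks. The genes were picked by a call on these same libraries, which favours such separation, so it is no separate support.

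**Figure D2:**
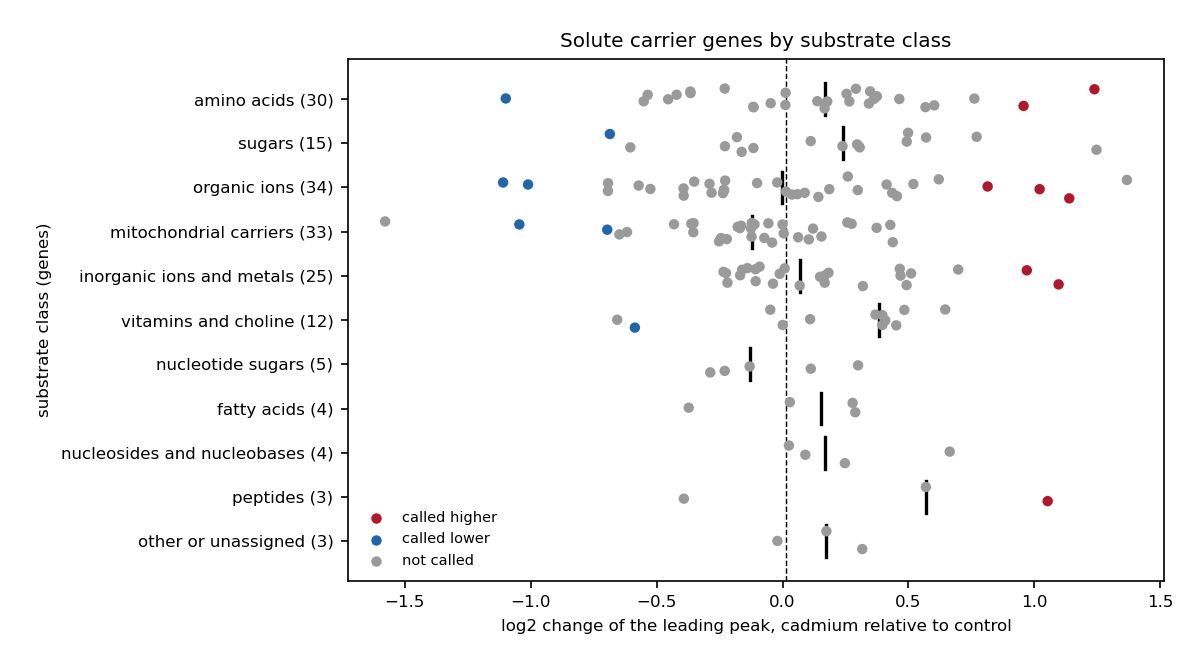
Log2 change of the leading peak (cadmium relative to control) for the 168 genes by substrate class, with the number of genes in brackets, black bars at the class medians and a dashed line at the median of all leading peaks. Called genes lie on both sides of 0 for amino acids and organic ions, and on the lower side alone for mitochondrial carriers.

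Amino acid transporters changed in opposite directions. The class held 30 genes with 88 peaks, of which 3 were called higher and 5 lower, or 9.09%. Over all peaks 6.27% were called, 3.55% higher and 2.72% lower. All 5 lower peaks were those of Slc38a2, a sodium-coupled carrier of small neutral amino acids that is known to be induced when amino acids are scarce. By leading peak, 19 genes had a positive and 11 a negative change, with a median of 0.17, while the median over all 88 peaks was -0.23.

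The leading peak of Slc38a2 (mm10, chr15:96687862-96688546) read 80.1, 114 and 92.2 CPM in controls and 36.4, 56.2 and 41.2 CPM in cadmium livers, where CPM is the count normalised to library size. No cadmium library reached the lowest control. The means were 95.5 ± 17.4 and 44.6 ± 10.3 CPM (SD, n = 3 each), a 2.14-fold lower level with a log2 change of -1.10 (SE 0.20, edgeR adjusted p = 0.0112). The other 4 peaks of Slc38a2 changed by -1.26, -1.41, -1.53 and -1.67. Of these, the peak at chr15:96698576-96698887, near the start of the gene, read 33.5, 30.4 and 36.8 CPM in controls and 13.8, 12 and 12.2 CPM in cadmium livers (edgeR adjusted p = 0.00118). The fall thus appeared near both ends of the gene. These 4 peaks stayed called without any 1 library, and the leading peak missed the threshold without cadmium replicate 3 (edgeR adjusted p = 0.071).

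Slc43a2, a facilitative carrier of branched-chain and aromatic amino acids, had 2 peaks and both were called higher. Its leading peak (chr11:75572354-75573250) read 10.1, 14.7 and 13 CPM in controls and 20.5, 28.8 and 24 CPM in cadmium livers. The groups did not overlap, and the log2 change was 0.96 (SE 0.19, edgeR adjusted p = 0.0159). Slc7a8, the light chain of a neutral amino acid exchanger, had a single, weak peak at the start of the gene (chr14:54781525-54781898). It read 1.3, 1.95 and 1.7 CPM in controls and 2.79, 4.54 and 4.35 CPM in cadmium livers. That is 2.36-fold higher, a log2 change of 1.24 (SE 0.25, edgeR adjusted p = 0.0191), with no overlap of the groups. The leading peaks of both genes missed the threshold without control replicate 3 (edgeR adjusted p = 0.0555 and 0.0606) and without cadmium replicate 3 (0.0701 and 0.0967). Slc7a8 missed it also without cadmium replicate 2 (0.0574), as did the second peak of Slc43a2 without each of these 3 libraries.

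The 3 amino acid transporters with the highest leading-peak CPM in controls, Slc38a3, Slc1a2 and Slc38a10, were not called. Per kilobase of peak in controls, Slc38a3, a glutamine carrier of hepatocytes, stood at 755 CPM per kilobase, Slc7a2, a cationic amino acid carrier, at 387 and Slc1a2, a glutamate carrier, at 149. The leading peak of Slc38a3 read 527, 432 and 536 CPM in controls and 436, 462 and 482 CPM in cadmium livers, which overlap (log2 change -0.12, edgeR adjusted p = 0.677). Slc1a2 read 196, 254 and 196 CPM and then 121, 198 and 153 CPM, which also overlap (log2 change -0.45, edgeR adjusted p = 0.197). Over all peaks, none of them called, log2 changes ran from -0.73 to -0.09 in the 5 of Slc38a3 and from -0.53 to 0.0015 in the 8 of Slc1a2. Every cadmium library lay below every control in 1 peak of Slc38a3 and 3 of Slc1a2, beside 12.5% of all peaks. Slc38a10, at 90.0 CPM per kilobase, had a log2 change of 0.17 (edgeR adjusted p = 0.546).

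Some transporters had peaks that all leaned one way without a call. These were chosen after their values were seen. Slc16a10, which carries aromatic amino acids, had 13 peaks with log2 changes of -0.28 to -0.66, and its leading peak changed by -0.54 (SE 0.16, edgeR adjusted p = 0.0694, and 0.0392 with the batch block). Slc7a2 had 9 peaks with log2 changes of -0.27 to -0.61, of which none was called. Its leading peak read 137, 148 and 144 CPM in controls and 98.6, 121 and 101 CPM in cadmium livers, with no overlap and an edgeR adjusted p of 0.106. Peaks of 1 gene share its RNA, so they are not separate measurements of the change. With the batch block, 13 peaks of amino acid transporters were called in place of 8.

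Genes that attend amino acid transport did not move in 1 direction. A list of 20 genes of the amino acid response driven by the transcription factor ATF4 had 15 with a peak, 2 called higher (Trib3, a pseudokinase, log2 change 1.82, and the transcription factor Atf5, 0.75) and 2 called lower (Cebpb, -1.09, and Vldlr, -1.04). The peak of Cebpb is shared with Tmem189, and the reads of the pair cannot be told apart. The list had a median of -0.11, and Atf4 itself had a log2 change of -0.08. Over all genes 6.79% of leading peaks were called, 4.39% higher and 2.4% lower. Of 16 partners and regulators of transporters 12 had a peak. The kinase Sgk2 (0.94) and the ubiquitin ligase Nedd4l (0.73), both of which act on transporters at the membrane, were called higher, and the scaffold Slc9a3r1 (-0.75) was called lower. Of these 7 calls that of Trib3 held without any 1 library, and the others were lost without cadmium replicate 3, with edgeR adjusted p of 0.0729 for Atf5, 0.0614 for Cebpb, 0.149 for Vldlr, 0.06 for Sgk2, 0.116 for Nedd4l and 0.0774 for Slc9a3r1. Without control replicate 3, those of Cebpb, Vldlr, Sgk2 and Nedd4l were lost too, that of Vldlr also without control replicate 2 and cadmium replicates 1 and 2, and that of Nedd4l without replicate 1 of either group.

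Organic ion transporters were called in both directions, and most of the calls lay in the monocarboxylate family. The class held 34 genes with 114 peaks, of which 6 were called higher and 8 lower, or 12.3%. Over all peaks 6.27% were called, 3.55% higher and 2.72% lower. Of the calls in the class, 7 were peaks of the single gene Slc16a12, which share its RNA. The Slc16 family, whose members carry lactate, ketone bodies, creatine and thyroid hormones, gave 12 of those 14 calls, in 4 of its 9 genes and among 51 peaks that include Slc16a10. The Slc22 family of organic cation and anion transporters had 14 genes with 41 peaks and no call. The class median over leading peaks was -0.00, with 17 genes on each side of 0.

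Slc16a12, a creatine transporter, fell along nearly its whole length. Its leading peak (chr19:34669901-34670865) read 126, 156 and 111 CPM in controls and 70.2, 65 and 59.6 CPM in cadmium livers. The groups were well apart, with means of 131 ± 22.8 and 64.9 ± 5.33 CPM (SD, n = 3 each) and a log2 change of -1.01 (SE 0.16, edgeR adjusted p = 0.0068). The other 6 called peaks changed by -0.78 to -1.31. The eighth peak, at the start of the gene (chr19:34746786-34747665), read 69.2, 61.7 and 74.4 CPM in controls and 67.6, 83 and 80.8 CPM in cadmium livers, and the groups overlapped. Its log2 change was 0.17 (SE 0.15, edgeR adjusted p = 0.546). In a test of whether a peak departs from the other peaks of its gene, which called 0.0296% of the peaks of genes with several, this peak had an adjusted p of 0.0971 (edgeR diffSpliceDGE), the lowest among the solute carrier peaks tested, and none of them was called. All 7 calls of Slc16a12 were lost without cadmium replicate 3, where the leading peak had an edgeR adjusted p of 0.0512, and the weakest of them, at 75.3% of the gene's length, also without control replicate 1 or cadmium replicate 1.

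Slc16a1, the main lactate and pyruvate transporter of most cells, moved the other way. Its leading peak (chr3:104652913-104653642) read 18.9, 22.2 and 20.8 CPM in controls and 43.8, 34.2 and 47.8 CPM in cadmium livers. Every cadmium library exceeded every control, and the level was 2.03-fold higher (log2 change 1.02, SE 0.17, edgeR adjusted p = 0.0076). Of its other 3 peaks, 2 were called, with log2 changes of 0.79 and 0.84, and the peak at the gene start had 0.73 (edgeR adjusted p = 0.065). Without cadmium replicate 3 the leading peak missed the threshold narrowly (edgeR adjusted p = 0.0508). The other 2 called peaks missed it there and without control replicate 3, and 1 of them without control replicate 1 or cadmium replicate 1 too, with adjusted p up to 0.129.

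**Figure D3:**
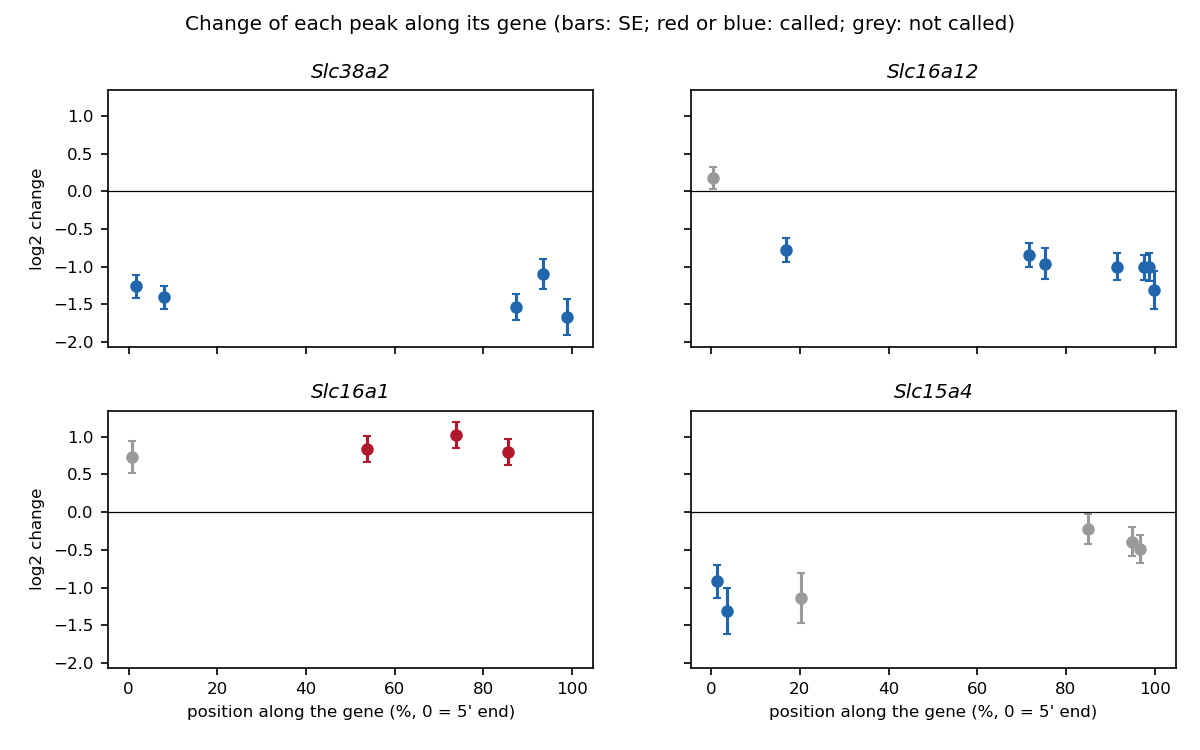
Log2 change (cadmium relative to control, bars SE) of each peak of Slc38a2, Slc16a12, Slc16a1 and Slc15a4 against its position along the gene (percent of the gene's length, 0 at the 5′ end). The peak at the start of Slc16a12 lies at 0.17 while its other peaks lie at -0.78 to -1.31, and all 5 peaks of Slc38a2 lie below -1.

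Slc16a5, a less studied member of the same family, had the widest control spread of the called genes. Its leading peak (chr11:115472628-115474329) read 93.7, 226 and 154 CPM in controls and 61.4, 71.8 and 86.5 CPM in cadmium livers. The highest cadmium library lay just under the lowest control, and the log2 change was -1.11 (SE 0.27, edgeR adjusted p = 0.0384). The call held in 1 of the 6 fits that each left out 1 library, and missed without control replicates 2 and 3 and without each cadmium replicate, with adjusted p up to 0.109. Slc16a6, which exports the ketone body beta-hydroxybutyrate from hepatocytes and was chosen after its values were seen, had 1 of 4 peaks called higher (log2 change 0.72, edgeR adjusted p = 0.0487), and its leading peak had 0.52 (0.131). That call was lost without 5 of the 6 libraries (up to 0.198). Slc16a7, a pyruvate carrier also chosen after its values were seen, read 96, 116 and 90.4 CPM in controls and 70.3, 66.6 and 73.5 CPM in cadmium livers, without overlap (log2 change -0.52, edgeR adjusted p = 0.0622).

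Outside the Slc16 family 2 organic ion transporters were called, both higher. Slc13a3, a sodium-coupled carrier of succinate and other dicarboxylates, had 1 peak (chr2:165405386-165405731) that read 5.44, 6.14 and 8.49 CPM in controls and 9.39, 15.2 and 19.5 CPM in cadmium livers. The groups did not overlap, though the cadmium libraries spread over a wide range (log2 change 1.14, SE 0.26, edgeR adjusted p = 0.0306). Slc17a4, an organic anion transporter, read 40.5, 29.4 and 29.9 CPM in controls and 60.8, 50.8 and 64 CPM in cadmium livers at its leading peak (chr13:23897967-23898894), again without overlap (log2 change 0.81, SE 0.17, edgeR adjusted p = 0.0225). Without cadmium replicate 3, neither was called (edgeR adjusted p = 0.141 and 0.116). Slc13a3 was not called without control replicates 1 or 2 or cadmium replicate 2 either, nor Slc17a4 without control replicates 2 or 3 or cadmium replicate 1.

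None of the Slc22 transporters, which take up cationic and anionic drugs and metabolites, was called. Slc22a3 stood at 1160 CPM per kilobase in controls, but its peak is shared with the plasminogen gene Plg, and the reads of the pair cannot be told apart. Slc22a7, an organic anion transporter chosen after its values were seen, read 5.89, 3.27 and 1.7 CPM in controls and 5.11, 12.6 and 10.4 CPM in cadmium livers. The groups overlapped, and the log2 change was 1.37 (SE 0.41, edgeR adjusted p = 0.0779). Without control replicate 1 it was 1.91 and called (0.0214). In the authors' deposited table the peak is marked Up with an adjusted p of 0.161. The similar genes Slc22a26, Slc22a27, Slc22a28 and Slc22a30 had leading-peak changes of -0.10, -0.39, -0.23 and -0.29, none of them called, and may share reads with one another.

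Promoter sequence was read for the transporters that moved, to show the letters near their starts. RefSeq windows on GRCm38.p6, from 250 bases before to 50 after the annotated start, were matched by symbol for 131 of the 168 genes and 14 of the 21 with a called peak, which have 17 windows. The E-box CACGTG, read by clock and MYC-type factors, was in 14.4% of solute carrier windows and 7.15% of all 32851 windows. It was in 3 of the 17, those of Slc16a1, Slc16a12 and Slc13a3. The D-box TTATGTAA, read by PAR bZIP factors, was in 1.67% and 0.938% of windows and in that of Slc16a12. The core of the antioxidant response element, TGACNNNGC, was in 17.8% and 12.4% and in 7 of the 17, and the core of the metal response element, TGCGCNC or TGCACNC, in 32.8% and 25.7% and in 6 of the 17. The element of the ATF4 response, TGATGNAA, was in 4.44% and 3.97% and in none of the 17. Both strands were searched. Stretches of 30 bases around matches in the genes described above are shown 5′ to 3′ on the gene's strand, with the matched letters in capitals, for the E-box of the rising Slc16a1 (chr3:104638452-104638481, + strand) and Slc13a3 (chr2:165473334-165473363, - strand), the E-box and D-box of the falling Slc16a12 (chr19:34747549-34747578 and chr19:34747386-34747415, - strand), and the antioxidant core of the falling Slc38a2 (chr15:96699736-96699765, - strand).
Slc16a1 E-box: gcggcgccgggtCACGTGgcgggaaggggg
Slc13a3 E-box: tgccccatttccCACGTGagtccagagtgg
Slc16a12 E-box: ttgcaagatgCACGTGcaggagactttgta
Slc16a12 D-box: gggcctaagcaTTACATAAcctggaggcgc
Slc38a2 antioxidant core: ccccgcccacTGACGCGGCgccccgccgct
The D-box of Slc16a12 was matched on the opposite strand, and in Slc16a1 the E-box overlaps a match to the antioxidant core. The 3 E-box matches start 200, 154 and 240 bases before the annotated starts of Slc16a1, Slc13a3 and Slc16a12, and they lie in genes that moved in both directions. A match describes the letters of the window and shows neither a bound site nor a cause.

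Mitochondrial carriers were called about as often as all peaks. The 33 Slc25 genes had 89 peaks, of which 5 were called lower and none higher, or 5.62%, beside 6.27% of all peaks in both directions and 2.72% lower. The leading peak had a negative change in 23 genes and a positive one in 10, with a median of -0.12, while 51.9% of all leading peaks were above 0. In 19 of the 89 peaks every cadmium library lay below every control, and in 2 every one lay above, beside 12.5% and 14.4% of all peaks. With the batch block 10 peaks were called, and without control replicate 3 or cadmium replicate 3 none was.

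Slc25a37, mitoferrin 1, which brings iron into mitochondria, was lower at all 5 of its peaks, 1 of them called. Its leading peak (chr14:69244479-69245486) read 44.6, 87.7 and 59.9 CPM in controls and 34.7, 31.3 and 27.1 CPM in cadmium livers. The groups did not overlap, and the controls spread more widely than the cadmium libraries (64.1 ± 21.8 and 31 ± 3.81 CPM, SD, n = 3 each, log2 change -1.05, SE 0.23, edgeR adjusted p = 0.0247). Its other 4 peaks changed by -0.57 to -0.99 and were not called. Besides the 2 libraries named above, its call was lost without cadmium replicate 2, and its adjusted p without any 1 library reached 0.121.

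Slc25a32, which carries folate or flavin cofactors into mitochondria, had 2 peaks and both were called lower. The leading peak (chr15:39095540-39096109) read 16.4, 17.7 and 15.6 CPM in controls and 10.7, 11.1 and 8.88 CPM in cadmium livers, a tight separation (log2 change -0.70, SE 0.15, edgeR adjusted p = 0.0253). Slc25a51, the mitochondrial NAD carrier, had 2 of 5 peaks called lower, with log2 changes of -0.78 and -1.06. Its leading peak read 88, 143 and 121 CPM in controls and 61.6, 93.2 and 69.7 CPM in cadmium livers, where the groups overlapped (log2 change -0.65, edgeR adjusted p = 0.0974, and 0.02 with the batch block). The calls of both genes were also lost without control replicate 2, those of the leading peak of Slc25a32 and of Slc25a51 without cadmium replicate 1, and that of the other peak of Slc25a32 without control replicate 1 or cadmium replicate 2. The highest adjusted p without 1 library was 0.152 for the leading peak of Slc25a32 and 0.178 for the peaks of Slc25a51.

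The largest log2 change of the family had no call. Slc25a25, which exchanges ATP-magnesium for phosphate and was chosen after its values were seen, read 64.7, 71.4 and 118 CPM in controls and 6.03, 56.6 and 22.2 CPM in cadmium livers. All 3 cadmium libraries lay below the controls, but they differed widely from one another (log2 change -1.58, SE 0.58, edgeR adjusted p = 0.139). With the batch block the log2 change was -2.06 and the adjusted p 0.0425, and without cadmium replicate 2 they were -2.58 and 0.0166. The carriers with the highest control levels in the class were not called. Slc25a47, a carrier found mainly in liver, read 374, 370 and 443 CPM in controls and 251, 368 and 378 CPM in cadmium livers at its leading peak (log2 change -0.25, edgeR adjusted p = 0.443), with overlap. Its other 2 peaks changed by -0.58 and -0.75, with every cadmium library below every control, and were not called by edgeR. The ornithine carrier Slc25a15 and the dicarboxylate carrier Slc25a10 had log2 changes of -0.12 and -0.36 (edgeR adjusted p = 0.663 and 0.334).

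**Figure D4:**
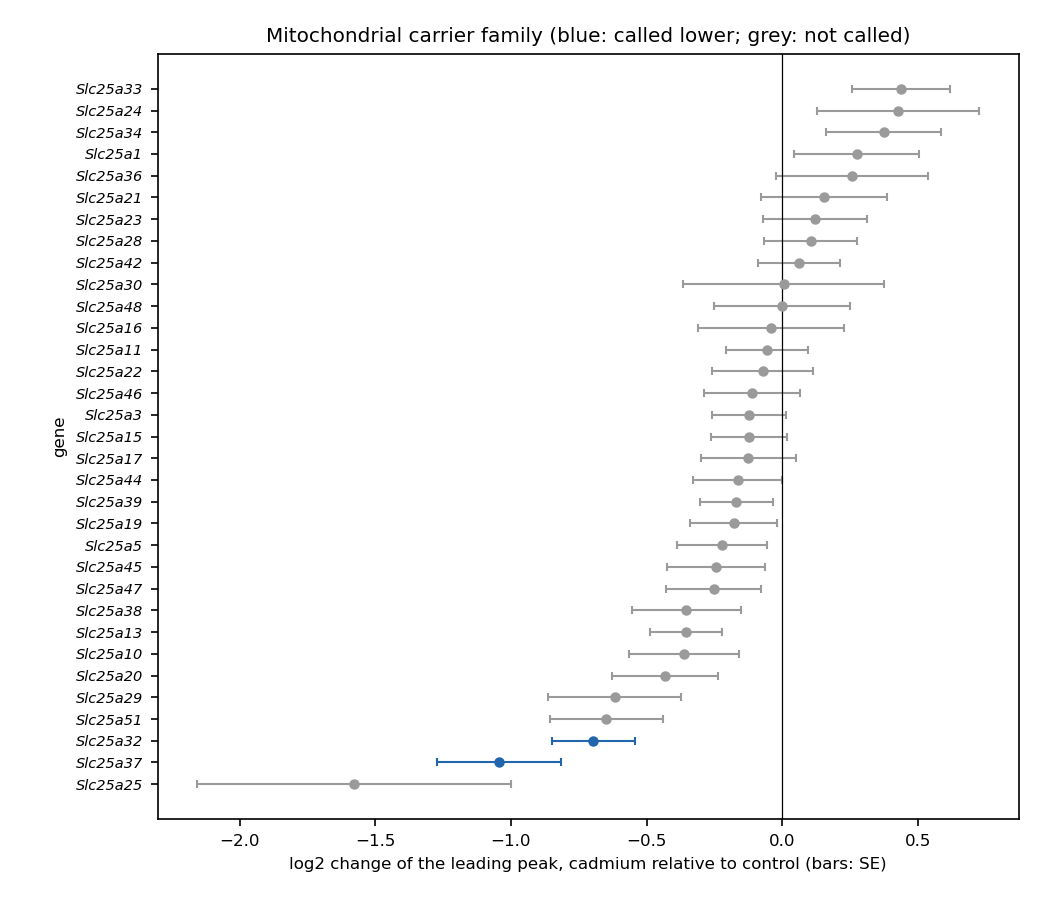
Log2 change of the leading peak (cadmium relative to control, bars SE) for the 33 mitochondrial carrier genes, in order. The 2 called genes, Slc25a37 and Slc25a32, lie at -1.05 and -0.70, and Slc25a25 at -1.58 has the widest bar.

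Sugar transporters gave few calls, and both were in peaks shared with other genes. The class held 15 genes with 47 peaks, of which 1 was called higher and 1 lower, or 4.26%. Over all peaks 6.27% were called, 3.55% higher and 2.72% lower. Of the 47, 14 had every cadmium library above every control and 4 had every one below, beside 14.4% and 12.5% of all peaks. Slc5a3, the sodium-coupled myo-inositol carrier, read 15.2, 20.2 and 15.6 CPM in controls and 12.1, 9.6 and 9.99 CPM in cadmium livers at its leading peak (chr16:92078119-92079371), with no overlap (log2 change -0.69, SE 0.17, edgeR adjusted p = 0.0412). That peak also carries the symbols Mrps6 and Gm49711, and it missed the threshold with upper-quartile scaling (edgeR adjusted p = 0.0509) and without control replicates 2 or 3 or cadmium replicates 2 or 3 (up to 0.181). Slc45a3, a proton-coupled sugar carrier, had 1 of 5 peaks called higher, with a log2 change of 0.74 (edgeR adjusted p = 0.0393) and Gm29103 as a second symbol. Without cadmium replicate 3 its adjusted p was 0.146, and the call was lost without 4 other libraries too. Slc45a4 of the same family, chosen after its values were seen, had 4 peaks with log2 changes of 0.49 to 0.77. All 4 had every cadmium library above every control, and none was called (edgeR adjusted p = 0.086 at the leading peak).

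The glucose 6-phosphate transporter Slc37a4, which feeds glucose release from the endoplasmic reticulum, lay at the threshold. Its only peak (chr9:44402531-44402873) read 54.3, 42.9 and 49.1 CPM in controls and 27.7, 35.7 and 32.7 CPM in cadmium livers. The groups did not overlap, with a log2 change of -0.60 (SE 0.16), an edgeR adjusted p of 0.0509 and a DESeq2 adjusted p of 0.0108, and without control replicate 2 the edgeR adjusted p was 0.0447. Slc2a9, the urate carrier with the most peaks of any member, had 17 peaks with log2 changes of -0.33 to 0.71, 7 of them negative and none called. The sodium-glucose carrier Slc5a2 changed by 0.11 at its leading peak, which it shares with another symbol (edgeR adjusted p = 0.764).

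Inorganic ion and metal transporters were called about as often as all peaks. The class held 25 genes with 66 peaks, and 4 peaks, or 6.06%, were called, all of them higher, beside 6.27% of all peaks in both directions and 3.55% higher. Of the 66, 17 had every cadmium library above every control and 2 had every one below, beside 14.4% and 12.5% of all peaks. Slc11a1, a divalent metal transporter of phagosomes in macrophages, read 3.61, 4.76 and 3.87 CPM in controls and 6.62, 10.1 and 9.49 CPM in cadmium livers at its only peak (chr1:74385685-74386023). The groups did not overlap (log2 change 1.10, SE 0.20, edgeR adjusted p = 0.0129). Slc41a2, a magnesium transporter, read 3.75, 7.25 and 5.78 CPM and then 9.48, 9.6 and 13.8 CPM at its leading peak (chr10:83316306-83316724), also without overlap (log2 change 0.97, SE 0.25, edgeR adjusted p = 0.0437). The sodium-calcium exchanger Slc8a1 (log2 change 1.01, edgeR adjusted p = 0.0252) and the sodium-bicarbonate cotransporter Slc4a4 (0.59, 0.0473, chosen after its values were seen) were each called at a peak other than the leading one. None of the 4 calls held without control replicate 3 or without cadmium replicate 3, where their adjusted p lay at 0.0717 for Slc11a1, 0.195 for Slc41a2, 0.101 for Slc8a1 and 0.228 for Slc4a4. The call of Slc4a4 was lost without each of the 6 libraries, and that of Slc41a2 and of Slc8a1 without 5 of them.

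Peptide transporters of the endosome and lysosome, the proton-coupled Slc15a3 and Slc15a4, changed in opposite directions. With 3 genes and 10 peaks the class is small, and 2 peaks were called higher and 2 lower, beside 3.55% and 2.72% of all peaks. Slc15a3, a peptide and histidine carrier of immune cells, read 7.8, 12.2 and 8.02 CPM in controls and 15, 22.6 and 20.6 CPM in cadmium livers at its leading peak (chr19:10842537-10843370). The groups did not overlap (log2 change 1.05, SE 0.22, edgeR adjusted p = 0.0203). A second peak of Slc15a3, shared with Tmem132a, changed by 0.99. Slc15a4 was lower at 2 peaks near its start, by -1.31 (edgeR adjusted p = 0.0321) and by -0.92 at a peak shared with Glt1d1 (0.0374). Another peak, at 20.3% of the gene's length, had a log2 change of -1.14 and was not called (0.0713). At the other end of the gene its 3 peaks changed by -0.22 to -0.49 and were not called. The calls of both genes were lost without cadmium replicate 3, where the leading peak of Slc15a3 had an edgeR adjusted p of 0.0892 and the peaks of Slc15a4 had 0.108 and 0.162. Without control replicate 3 the leading peak of Slc15a3 (0.0824) and both of Slc15a4 (0.105 and 0.126) missed it. The leading peak of Slc15a3 also missed it without cadmium replicate 2, and its shared peak without control replicate 1 or 2. Both peaks of Slc15a4 missed it without control replicate 2 (0.0868 and 0.0741), the first without cadmium replicate 1 (0.0657) and the second without cadmium replicate 2 (0.0951).

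Some markers of non-parenchymal cells were higher in the same livers as Slc11a1 and Slc15a3, and others were lower. For the leading peaks of all genes, 4.39% were called higher and 2.4% lower, and 51.9% had a positive change. Of 8 Kupffer cell and macrophage markers 6 had a peak, and Adgre1 and Timd4 had none. Cd5l (log2 change 1.14) and the receptor Csf1r (0.92) were called higher and the scavenger receptor Cd163 (-3.08) lower. The other 3 were not called, with Clec4f at 0.14, Marco at -0.35 and Vsig4 at -0.81, and the median of the 6 was -0.10, with 3 above 0. The summed level was 92.0 to 124 CPM in controls and 128 to 162 CPM in cadmium livers, of which Clec4f alone gave means of 72.8 and 80.1 CPM. All 8 stellate cell and fibroblast markers had a positive log2 change and 3 were called, the collagens Col1a1 (2.26), Col3a1 (1.91) and Col1a2 (1.44), with summed levels of 82.9 to 108 and 135 to 164 CPM. The part of these cells in the higher transporter peaks was not tested. Hepatocyte markers, of which 9 of 10 had a peak, gave no call and summed to 19160 to 21285 CPM in controls and 17469 to 19628 CPM in cadmium livers. Of 7 endothelial markers with a peak Lyve1 (1.17) was called higher, with sums of 139 to 218 and 152 to 219 CPM. None of the 4 cholangiocyte markers with a peak was called. All 4 had positive changes with a median of 0.95, and they summed to 25.2 to 32.5 CPM in controls and 21.8 to 74.1 CPM in cadmium livers, where replicate 2 stood apart from the others (Spp1 at 54.4, 15.2 and 47.3 CPM, Sox9 at 10.4, 2.80 and 7.29 CPM). The 2 lymphocyte markers with a peak were not called and summed to 1.38 to 2.41 and 2.46 to 3.58 CPM. Without control replicate 3 or cadmium replicate 3 the calls of Cd5l (edgeR adjusted p = 0.0546 and 0.0696), Csf1r (0.0747 and 0.0991) and Lyve1 (0.0539 and 0.0826) were lost, that of Csf1r without cadmium replicate 2 as well and that of Lyve1 without 3 further libraries.

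Vitamin and choline transporters mostly leaned higher, while their only called gene fell. The class held 12 genes with 26 peaks, of which 2 were called, or 7.69%, beside 6.27% of all peaks. The leading peak had a positive change in 9 genes, with a median of 0.38, beside 51.9% of all leading peaks above 0. Slc46a3, a lysosomal member of the folate carrier family, read 39.7, 41.7 and 35.3 CPM in controls and 27.1, 26.9 and 23.7 CPM in cadmium livers at its leading peak (chr5:147878517-147879089). The groups were apart, with a log2 change of -0.59 (SE 0.15, edgeR adjusted p = 0.0408), and a second of its 3 peaks was called at -0.68. The call of the leading peak was lost without each of the 6 libraries (edgeR adjusted p = 0.0704 to 0.211) and with upper-quartile scaling (0.0522). The 4 choline transporter-like genes of the Slc44 family all had positive changes, of 0.11 to 0.65, and none was called.

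No peak was called in the fatty acid transporters (4 genes of the Slc27 family, 11 peaks), the nucleoside and nucleobase transporters (4 genes, 10 peaks), the nucleotide sugar transporters (5 genes of the Slc35 family, 11 peaks) or the 3 other genes. Beside 6.27% of all peaks called, these classes are too small for the lack of a call to say much. The leading peaks of the 4 Slc27 genes changed by -0.37 to 0.29.

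**Figure D5:**
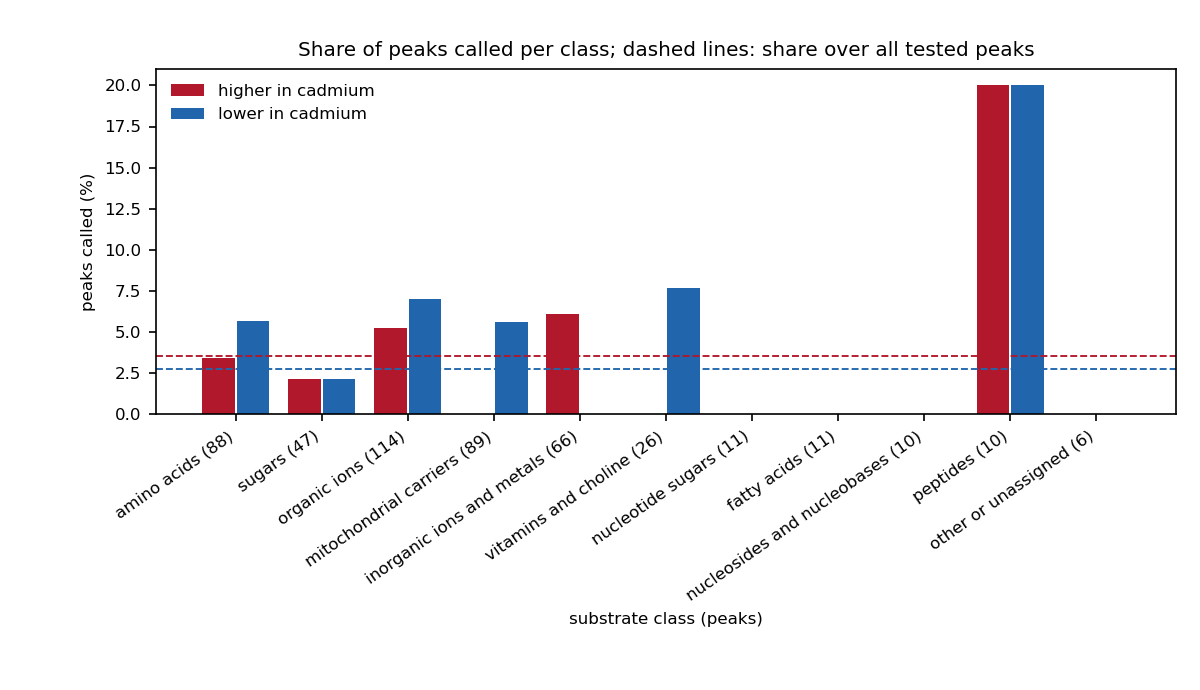
Share of peaks called higher (red) and lower (blue) in cadmium livers per substrate class (percent, with the number of peaks in brackets), beside dashed lines at the shares over all tested peaks, 3.55% and 2.72%. Mitochondrial carriers have lower calls alone and inorganic ion and metal transporters higher calls alone, and the tall bars of the peptide class rest on 2 peaks each.

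The direction of a gene was mostly shared by its peaks. Of 107 solute carrier genes with at least 2 peaks, 78 had all peaks of 1 sign, or 72.9%, beside 67.4% of such genes in the whole table. In the 21 genes with a called peak, 71 of 72 peaks had the sign of the called ones, and the start peak of Slc16a12 was the exception. The 72 include the 39 called peaks themselves, whose agreement is given because no gene had calls in both directions. The rest share the RNA of the called peaks, so the count is no separate support for a shared direction. The DESeq2 test called 63 solute carrier peaks, 21 higher and 42 lower, beside 9.92% of all peaks. They included all 39 edgeR calls and 24 further peaks in 21 genes, among them Slc37a4, Slc7a2 and Slc25a47. Of the solute carrier peaks, 9 were called Up and 14 Down in the authors' deposited table, beside 4.24% of all peaks, and 19 of these were among the 39. The authors' marks did not go by adjusted p, so they are not a like count. Their leading peak of Slc43a2 (log2 change 0.95, deposited adjusted p = 0.000166) was not marked, and that of Slc22a7 (1.36, 0.161) was marked Up. Of the 39 edgeR calls, 19 changed at least 2-fold.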

How the data were processed

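The deposited table gives, per the file headers, 1 raw read count per peak and library, gene symbols, and the authors' own log2 fold change with a raw and an adjusted p-value. Per the submitters' processing notes the build was mm10 and the tools included MACS2 (2.1.1), STAR (2.7.1a), DESeq2 (given as 4.1.0), SAMtools (1.3.1) and cutadapt (1.1.8), with no role or order stated. How reads were counted (strand, multiple matches, settings): not given in the sources used here. Count columns were read as immunoprecipitated libraries, since input libraries carry the same numbers, which is an assumption.

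Counts were fitted over the whole table with edgeR 4.0.16 in R 4.3.3 (TMM scaling, filterByExpr with a minimum count of 10 and total of 15, quasi-likelihood F test, Benjamini-Hochberg adjustment over 37088 peaks), with peaks called at an adjusted p below 0.05. Within-gene departure was tested with diffSpliceDGE, and scripts were tested on simulated data. Errors of log2 changes are the size divided by the root of F. CPM values use TMM-scaled library sizes. DESeq2 1.42.0, upper-quartile scaling, no filter, a batch block and each library left out were alternatives. The members and lists were chosen with earlier results of these data known.

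Genes named are, by leading peak, up to 8 called genes per direction in the 4 main classes (amino acids, sugars, organic ions, mitochondrial carriers), their 3 highest in control CPM, up to 4 called genes in each other class, and up to 10 genes with another called peak, while others are said to be chosen after their values were seen. A gene that this rule names is not reported here. The labels give each replicate number a batch. Same-numbered libraries deviated together from their group means (correlations 0.167, 0.243 and 0.208 over peaks, -0.199 to 0.0192 for other pairs), so the block was kept as a paired fit. Of the solute carrier peaks 76 carry a second symbol, and the reads of such genes cannot be told apart. Exon and UTR annotation was not used here. Nothing in the labels says whether a library is 1 animal, so p-values measure the spread between these samples.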

Additional observations from a re-analysis of the deposited data

How the results depend on the processing

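Of the 39 called solute carrier peaks, 39 were kept by DESeq2, 39 with the replicate block, 38 without the low-count filter, 39 without the 2 largest peaks and 36 with upper-quartile scaling. The 4 kept without any 1 library were peaks of Slc38a2, and 2 (in Slc4a4 and Slc46a3) were kept in none of these 6 fits. DESeq2 called 3683 peaks in the whole table and 63 solute carrier peaks, 42 of them lower, in 35 genes, with 14 of amino acid, 5 of sugar and 11 of mitochondrial carriers. With the replicate block, which pairs the libraries by batch, 36 were lower, with 13 of amino acid and 10 of mitochondrial carriers. Sugar transporters had 1 called peak with upper-quartile scaling and 0 among peaks with a single symbol, and 3 called genes with counts summed per gene. Leaving out 1 library gave 543 to 1976 calls in the whole table, 4 to 36 solute carrier peaks (0 to 11 higher, 4 to 26 lower), 1 to 18 genes and 0 to 15 by leading peak. The range was 4 to 12 peaks for amino acid, 0 to 3 for sugar, 0 to 13 for organic ion and 0 to 8 for mitochondrial transporters. These fits hold fewer samples, and why 1 library weighs more than another was not tested. Without control replicate 1 the class medians were 0.09 for organic ions and -0.18 for mitochondrial carriers. Without cadmium replicate 2 they were 0.11 for amino acids and 0.09 for sugars, and without cadmium replicate 3 0.11 for amino acids. Among 1115 tested values of named peaks 2 changed sign, neither of them called: Slc5a2 (-0.0050 without cadmium replicate 2, within a range of -0.0050 to 0.24 over the libraries left out) and Slc2a9 (0.016 with counts summed per gene), and the cause was not tested. What count depth limits was not tested.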

Other observations

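All 20 genes of a list of organic anion (Slco) and ATP-binding cassette (Abc) transporters had a peak. Of these, 1 was called, beside 6.79% of the leading peaks of all genes, 4.39% higher and 2.4% lower. It was Abcb1a, a drug efflux pump, which was lower (log2 change -0.92, edgeR adjusted p = 0.0107), and without cadmium replicate 3 its adjusted p was 0.0766. The list had a median log2 change of -0.17, with 7 genes above 0.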
